A study of Mus musculus with 620 samples.

Results

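Skeletal muscle of aged mice given exenatide was compared directly with skeletal muscle of aged mice given rapamycin, with 5 libraries in each group and 1 library per animal. The 10 libraries were taken by their titles and tissue label from the ST cohort, which held 208 of the 620 libraries of the series and 30 of skeletal muscle. The series asked how the transcriptome of many mouse tissues differs with age, drug treatment and knockdown of the GLP-1 receptor in the hypothalamus. Both drug groups carried the cohort's label for aged animals and no label for the knockdown. Strain, sex, age, dose, route, length of treatment, the muscle dissected and whether a control for the knockdown was given were not stated in the sources used here. Heart and hippocampus of the same 10 animals, and muscle of 5 aged controls, were used for context.

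Rapamycin binds the protein FKBP12, encoded by Fkbp1a, and the complex inhibits mTORC1, the kinase complex that links nutrients and growth factors to protein synthesis and restrains autophagy. Exenatide is a peptide agonist of the GLP-1 receptor, known for raising insulin secretion and lowering appetite. Muscle is a large site of insulin-driven glucose uptake, and its fibres are classed by the myosin heavy chain they carry.

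The libraries held 23669202 to 27112075 counts with exenatide and 23179730 to 26649456 with rapamycin. Levels are counts-per-million (CPM) scaled by TMM, a factor per library that offsets differences in composition, and differences are log2 fold changes, exenatide minus rapamycin, so that a negative value is higher with rapamycin. The defining genes of skeletal muscle were abundant in every library, and the summed level of 15 skeletal fibre genes was 210000 to 267000 CPM with exenatide and 276000 to 329000 CPM with rapamycin. The 10 most abundant genes of a library took 24.7 to 27.6% of its counts with exenatide and 27.3 to 31.4% with rapamycin, and the TMM factors did not overlap between the groups (0.973 to 1.13 against 0.895 to 0.949). Exenatide replicate 3 and rapamycin replicate 4 stood apart from the other libraries of their groups on a multidimensional scaling plot. Exenatide replicate 1 lay at 0.297 on its first axis, beside rapamycin replicate 2 at 0.301. The other exenatide libraries were at -1.437 to -0.558 on this axis. All 10 libraries were sequenced in batch 5, and no pair within a group agreed within sampling noise. In bulk RNA, fewer cells of a type and less RNA per cell cannot be told apart.

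Of 13897 genes tested, 1152 were higher with exenatide and 1276 higher with rapamycin at an adjusted p under 0.05 by edgeR's quasi-likelihood test with Benjamini-Hochberg adjustment. These were 8.29% and 9.18% of the genes tested, and the median log2 fold change over all of them was 0.03. Genes of protein synthesis, of the acetylcholine receptor and of fast myosins were among those higher with rapamycin. Macrophage markers, glucocorticoid response genes and several regulators of mTORC1 were among those higher with exenatide. Mtor, Deptor and Tsc2 went the other way, and most genes of the mTORC1 and mTORC2 list were not called. Some lists share members, so their counts are not independent. With 1 library left out, 736 to 1016 genes were higher with exenatide and 921 to 1340 with rapamycin, the 736 coming without rapamycin replicate 3. Without exenatide replicate 3 and rapamycin replicate 4 together they were 1041 and 1190. In a fit over all 6 ST muscle groups the counts were 381 and 558. With an offset per library for GC content and transcript length they were 635 and 1138. This offset and the joint omission were chosen after seeing the data. No gene called in both the main and an alternative fit had the opposite sign.

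**Figure D1:**
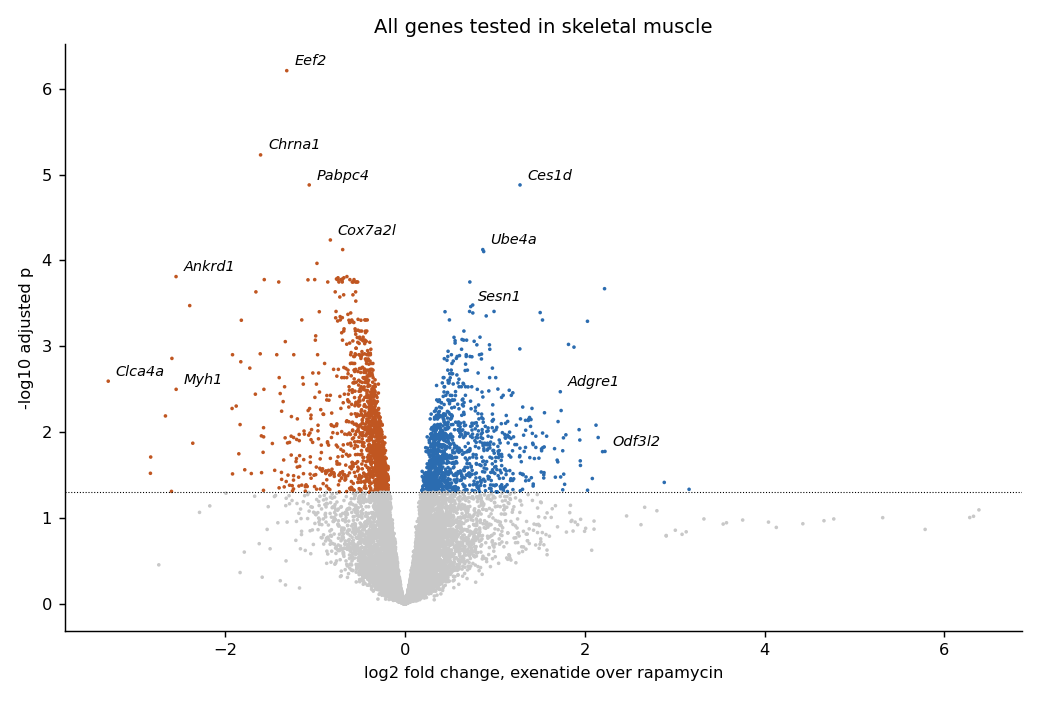
Each point is 1 of the 13897 genes tested in skeletal muscle, with the log2 fold change of exenatide over rapamycin on the x axis and -log10 of the adjusted p on the y axis. Blue genes were higher with exenatide (1152) and orange genes higher with rapamycin (1276) at an adjusted p under 0.05 (dotted line), and Eef2 had the smallest adjusted p.

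Eef2, the elongation factor that moves the ribosome along the mRNA, had the smallest adjusted p of all genes. It measured 1540, 1320, 1460, 1410 and 1370 CPM in exenatide replicates 1 to 5 and 3410, 3790, 3660, 3360 and 3650 CPM in rapamycin replicates 1 to 5. Every rapamycin library was above every exenatide library. The difference was -1.31 ± 0.07 (log2 fold change ± SE, n = 5 and 5, adjusted p = 6.17e-07), which is 2.49-fold. Aged controls lay between 1630 and 1820 CPM, above all exenatide and below all rapamycin libraries. Eef2 and most genes named below were picked for their p in these same libraries. Their lack of overlap is thus no separate support, and its share over all genes was not counted.

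Pabpc4, a cytoplasmic poly(A)-binding protein, measured 342, 318, 320, 312 and 336 CPM with exenatide and 666, 809, 670, 599 and 702 CPM with rapamycin. The groups did not overlap (-1.06 ± 0.08, adjusted p = 1.32e-05). Eif3f, a subunit of the initiation factor eIF3, measured 122, 115, 131, 123 and 129 CPM with exenatide and 198, 245, 197, 193 and 219 CPM with rapamycin (-0.74 ± 0.08, adjusted p = 0.000159). Eif4b, a cofactor of the initiation helicase eIF4A, measured 382, 331, 346, 331 and 313 CPM with exenatide and 559, 523, 547, 607 and 587 CPM with rapamycin. The Eif4b groups did not overlap (-0.71 ± 0.07, adjusted p = 0.000167). Trmt1, a tRNA methyltransferase, was also higher with rapamycin (-0.64 ± 0.06, adjusted p = 0.000154).

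The list of translation factors and ribosome biogenesis genes had a median of -0.19. Of 38 tested genes, 0 were higher with exenatide and 16 with rapamycin, against 8.29% and 9.18% of all genes. Besides those above, the 16 included the elongation factor subunits Eef1a2 (-0.60), Eef1b2 (-0.49), Eef1d (-0.52) and Eef1g (-0.48). The eIF3 subunits Eif3h (-0.54) and Eif3e (-0.51) and the nucleolar protein Npm1 (-0.63) were also among them. The cap-binding protein Eif4e (0.07), the helicase Eif4a1 (0.14) and Eef2k, the kinase that inhibits eEF2 (0.11), did not pass the test. The summed level of the list was 9400 to 10300 CPM with exenatide and 13700 to 14600 CPM with rapamycin. The count lay between 15 and 18 with any 1 library left out and was 11 in the fit over 6 groups. Without exenatide replicate 4, 1 gene was higher with exenatide.

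Of 50 cytosolic ribosomal protein genes tested, 0 were higher with exenatide and 43 were higher with rapamycin, against 9.18% of all genes. Their median was -0.49, against 0.03 over all genes tested. Rpl28, of the large subunit, measured 74.5, 74.5, 63.8, 72.3 and 83.6 CPM with exenatide and 120, 145, 120, 102 and 127 CPM with rapamycin (-0.72 ± 0.09, adjusted p = 0.000492). Rpl7a, also of the large subunit, measured 222, 206, 184, 184 and 215 CPM with exenatide and 324, 372, 302, 314 and 329 CPM with rapamycin (-0.68 ± 0.08, adjusted p = 0.000251). For both genes the groups did not overlap. Rps2 (-0.50), of the small subunit, likewise had no overlap. The 7 members that did not pass were Rpl3 (0.23), Rpl34 (-0.23), Rpl37 (-0.55), Rpl38 (-0.27), Rps3 (-0.21), Rps14 (-0.27) and Rps24 (-0.29), and Rpl3 was the only member with a positive value. The summed level was 7500 to 10100 CPM with exenatide and 11700 to 15100 CPM with rapamycin, so the groups did not overlap. With 1 library left out, 34 to 44 members were called, but in the fit over 6 groups only 3 were, at a median of -0.51. Aged controls, which that fit includes, ran from 51.9 to 229 CPM for Rpl7a. Aged control replicate 1 had 1.05% of its counts from mitochondrial rRNA, against 0.12 to 0.35% in the 10 drug libraries, and the part of this in the lower count was not tested. Many ribosomal proteins have near-identical processed copies in the genome, so their single values are uncertain.

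In mammals, many mRNAs of ribosomal proteins and elongation factors begin with a C followed by an unbroken run of C and T, and mTORC1 is known to tune their translation. The RefSeq starts of 6 genes of these lists are shown because a run of C and T lies near the annotated start (build GRCm38.p6, 5 bases before to 25 bases from the annotated start, 5′ to 3′ on the gene's strand, the run in capitals). The positions were Eef2 at chr10:81176626-81176655 (+ strand), Eif3f at chr7:108934410-108934439 (+), Eif4b at chr15:102073768-102073797 (+), Rpl7a at chr2:26910802-26910831 (+), Rpl28 at chr7:4792960-4792989 (+) and Rpl13a at chr7:45128721-45128750 (-).
Eef2: cgggcgttgacgtcagcggtCTCTTCCgcc
Eif3f: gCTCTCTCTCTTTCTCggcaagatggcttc
Eif4b: tcggacgccgcgccaCCCCCTCgcgctgct
Rpl7a: CTTTCTTTCTCCagcagccgagcaagatgg
Rpl28: tgtCTCTCTTTCCgtctccggccgccatag
Rpl13a: gacaagaCCTCCTCCTTTCCCaggcggctg
Counted from the first base of the annotated start, the run began 4 and 2 bases before it in Eif3f and Rpl28. In Rpl7a the run held the first base of the window, 5 bases before the start, and may begin further upstream. The run began at base 3 in Rpl13a, at base 11 in Eif4b and at base 16 in Eef2. The runs of Rpl13a, Eif4b and Eef2 thus begin inside the annotated transcript and not at its first base. The run searched for was a C followed by at least 6 C or T on the gene's strand, and both the window and the genes shown were chosen after the values were seen. It was in 41.7% of the ribosomal protein starts (15 of the 36 genes, out of 50, with a RefSeq sequence) and in 24.1% of the translation factor starts (7 of 29, out of 38). It was in 12.3% of all 27025 RefSeq starts and in 12.5% of the genes tested. Of the genes higher with rapamycin 14.6% held it, and of those higher with exenatide 12.8%. The rapamycin set includes the called members of both lists, so its share is not a separate observation. A run in this window is a match of letters, and use of that start in muscle was not measured.

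**Figure D2:**
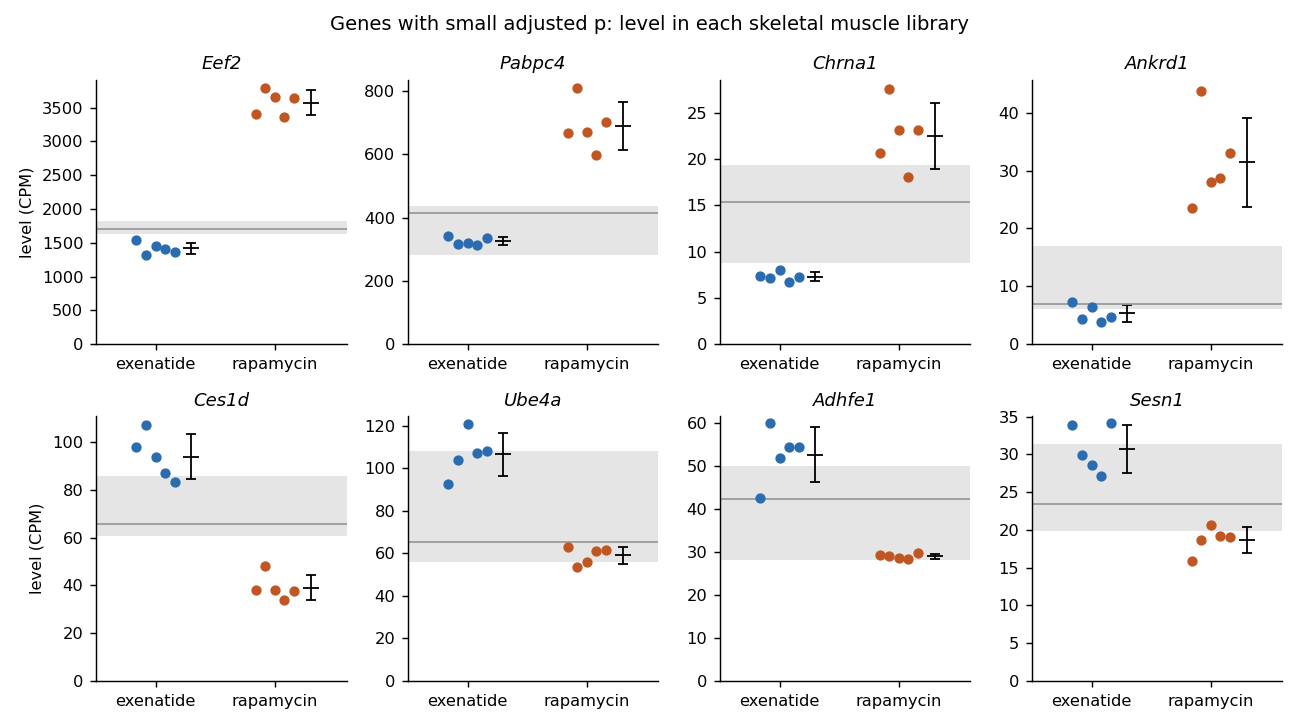
Each panel gives the level (CPM) of 1 gene in the 5 exenatide (blue) and 5 rapamycin (orange) muscle libraries, with the mean and SD in black and the range and median of the 5 aged controls as a grey band and line. The genes were picked for a small p in these libraries. The drug groups did not overlap in the 8 panels, which is no separate support, and the share over all genes was not counted. Eef2 with rapamycin lay above the whole range of the aged controls.

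4 subunits of the muscle acetylcholine receptor, Chrna1, Chrnb1, Chrnd and Chrne, were higher with rapamycin, as were 9.18% of all genes. All 4 come from the atrophy and denervation list below, and Chrnb1 and Chrnd were chosen after their values were seen. Chrna1, the alpha subunit, measured 7.36, 7.14, 8.03, 6.68 and 7.29 CPM with exenatide and 20.6, 27.5, 23.1, 18 and 23.1 CPM with rapamycin. The lowest rapamycin library was above the highest exenatide library by more than the spread within either group (-1.60 ± 0.11, 3.04-fold, adjusted p = 5.9e-06). Chrne, the adult epsilon subunit, measured 6.05, 9, 9, 7.09 and 6.44 CPM with exenatide and 19.2, 19.1, 21.5, 10.9 and 18.9 CPM with rapamycin (-1.23 ± 0.18, adjusted p = 0.00125). Rapamycin replicate 4 was the lowest of its group and still above all exenatide libraries. The delta subunit Chrnd (-1.01, adjusted p = 0.0316) and the beta subunit Chrnb1 (-0.58, adjusted p = 0.00962) were higher with rapamycin as well.

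Chrna1, Chrnb1, Chrnd and Chrne belong to a list of 29 tested genes of atrophy and denervation, at a median of 0.17. In it 6 were higher with exenatide and 7 with rapamycin, against 8.29% and 9.18% of all genes. Ankrd1, a titin-binding ankyrin repeat protein induced by mechanical load and injury, showed the largest difference of the list. It measured 7.32, 4.39, 6.51, 3.79 and 4.65 CPM with exenatide and 23.5, 43.7, 28.1, 28.7 and 33 CPM with rapamycin (-2.54 ± 0.21, 5.83-fold, adjusted p = 0.000154). The groups did not overlap. The adhesion molecule Ncam1 (-1.33 ± 0.19, adjusted p = 0.00088) and the transcription factor Runx1 (-0.80, adjusted p = 0.0101), both known to rise after denervation, were higher with rapamycin, while Musk, the receptor kinase of the junction, had 0.34 and was not called. In the other direction went Mstn (0.63 ± 0.14, adjusted p = 0.0107), the growth inhibitor myostatin, and Trim63 (0.80 ± 0.20, adjusted p = 0.0199), a ubiquitin ligase of muscle atrophy. Trim63 measured 333, 315, 401, 205 and 247 CPM with exenatide and 186, 123, 165, 221 and 178 CPM with rapamycin, so exenatide replicate 4 lay within the rapamycin range. Its call was lost without rapamycin replicate 3 and without the filter on low counts, where its largest adjusted p was 0.0568. Mstn lost its call in the fit over 6 groups and with the length and GC offset. Fbxo32, the other classic atrophy ligase, had 0.96 ± 0.30 and missed the threshold (adjusted p = 0.0521). Of 9 tested Schwann cell and nerve markers, 4 were higher with rapamycin and 0 with exenatide, against 9.18% and 8.29% of all genes. Among the 4 was the myelin gene Prx (-1.37, adjusted p = 0.00568). The summed level of all 12 nerve markers was 48.9 to 67.3 CPM with exenatide and 53.1 to 95.4 CPM with rapamycin. Their part in the receptor subunit values was not tested. The nerve count was 2 without exenatide replicate 3, 4 or 5 or rapamycin replicate 2.

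Of 16 fast fibre genes tested (median -0.16), 7 were higher with rapamycin and 0 with exenatide, against 9.18% and 8.29% of all genes. Myh1, the myosin heavy chain of type IIX fibres, measured 1030, 688, 621, 1110 and 764 CPM with exenatide and 3540, 4310, 6540, 8300 and 2150 CPM with rapamycin. The groups did not overlap (-2.54 ± 0.37, 5.83-fold, adjusted p = 0.00316). Of the counts of the 4 adult myosin genes in a library, Myh1 held 0.638 to 1.59% with exenatide and 1.75 to 7.75% with rapamycin. Myh4, the chain of the fastest type IIB fibres, measured 84700, 74500, 96800, 68600 and 70600 CPM with exenatide and 110000, 129000, 124000, 96900 and 121000 CPM with rapamycin (-0.54 ± 0.11, adjusted p = 0.00653). Exenatide replicate 3 and rapamycin replicate 4 came closest to each other, without overlap. Myh2, the chain of oxidative IIA fibres, measured 152, 155, 35.8, 179 and 139 CPM with exenatide and 370, 374, 1400, 1730 and 158 CPM with rapamycin. These ranges overlapped, through rapamycin replicate 5 (-2.59 ± 0.75, adjusted p = 0.0487), and the call was lost under 12 of the alternatives run. Myh13, the superfast chain known from eye muscles (-2.83, adjusted p = 0.03), also overlapped and was lost under 9. Actn3, the fast-fibre actinin (-0.56, adjusted p = 0.00804), Mybpc2, the fast myosin-binding protein C (-0.58, adjusted p = 0.00763), and Atp2a1, the fast calcium pump SERCA1 (-0.43, adjusted p = 0.0109), made up the 7. The fast troponins Tnnt3 (0.13), Tnni2 (0.20) and Tnnc2 (0.05) did not pass.

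Slow fibre genes had a median of -1.39 over 13 genes tested, and 0 of them passed the test. Myh7, the slow myosin heavy chain, measured 26.4, 2.90, 0.0423, 0.225 and 0.407 CPM with exenatide and 2.57, 4.82, 11.5, 179 and 0.0867 CPM with rapamycin. The groups overlapped widely, and the spread within a group exceeded the difference (-2.74 ± 1.85, adjusted p = 0.349). Without rapamycin replicate 4 the list's median was 0.32 and Myh7 was 0.315, so its direction rested on that library. Summed, the slow genes were at 384 to 1000 CPM with exenatide and 488 to 2840 CPM with rapamycin, with 2840 in rapamycin replicate 4 and 1050 as the next highest. Tendon markers were also lower with exenatide in median (-0.93, 7 tested), with Comp (-1.78) and Kera (-1.92) called, which lost their calls under 6 and 7 alternatives. The tendon count was 2 of 7, against 9.18% of all genes. It was 1 without exenatide replicate 1, 3 or 5 or rapamycin replicate 2 or 3, and 4 without rapamycin replicate 5. Their summed level was 28.9 to 37.1 CPM with exenatide and 34.4 to 130 CPM with rapamycin, and their part in the fibre results was not tested.

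**Figure D3:**
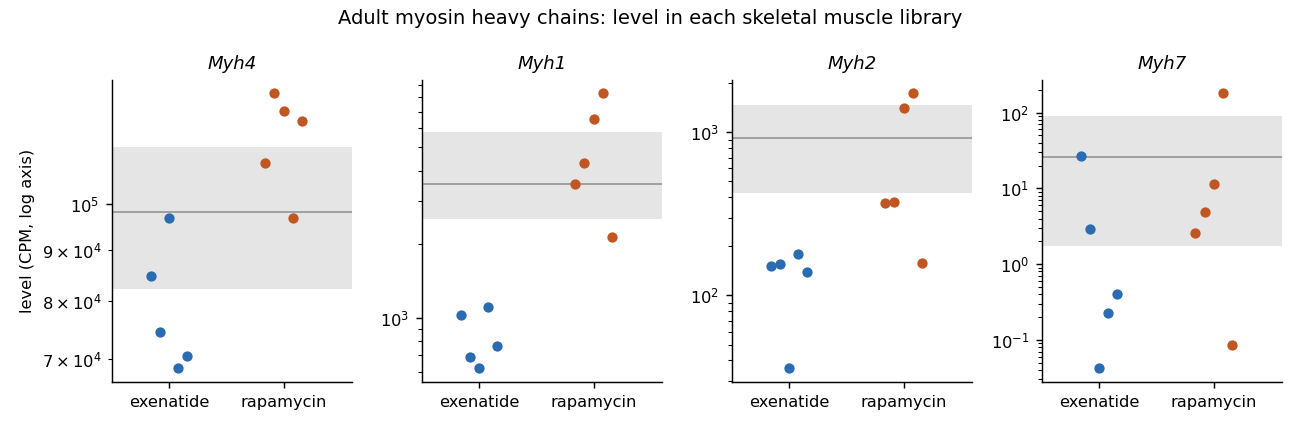
Each panel gives the level of 1 adult myosin heavy chain gene (CPM, log axis) in each exenatide (blue) and rapamycin (orange) muscle library, with the range and median of aged controls as a grey band and line. Myh4 and Myh1 did not overlap between the drugs, Myh2 overlapped through rapamycin replicate 5 at 158 CPM, and Myh7 overlapped widely, with rapamycin replicate 4 at 179 CPM.

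Of 29 tested genes of calcium handling and excitation-contraction coupling, 7 were higher with rapamycin, 0 with exenatide and 22 were not called (median -0.13), against 9.18% and 8.29% of all genes. Cacna1s, the voltage sensor of the T-tubule, measured 1530, 1490, 1730, 1390 and 1450 CPM with exenatide and 2340, 2720, 2810, 2480 and 2440 CPM with rapamycin, without overlap (-0.73 ± 0.08, adjusted p = 0.000178). Stim1, the calcium sensor of store-operated entry, measured 266, 278, 281, 285 and 276 CPM with exenatide and 366, 378, 402, 343 and 363 CPM with rapamycin (-0.40 ± 0.06, adjusted p = 0.00161). Ryr1, the calcium release channel (-0.58, adjusted p = 0.00941), Camk2b, a calmodulin-dependent kinase (-0.49, adjusted p = 0.00828), and Rcan1, a calcineurin inhibitor and target (-0.54, adjusted p = 0.00803), moved the same way. Ryr1 lost its call in the fit over 6 groups (adjusted p = 0.175), where the list count was 4. The list count was 11 without rapamycin replicate 4, and 1 gene was higher with exenatide without exenatide replicate 4.

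Of 40 tested components and regulators of mTORC1 and mTORC2, 7 were higher with exenatide and 3 with rapamycin, with 30 not called. Over all genes tested the shares were 8.29% and 9.18%, so the rapamycin count was near the background. Sesn1, a sestrin, which restrains mTORC1 when leucine is low, measured 33.9, 29.9, 28.6, 27.1 and 34.1 CPM with exenatide and 15.9, 18.7, 20.6, 19.2 and 19 CPM with rapamycin, without overlap (0.73 ± 0.09, adjusted p = 0.000344). Castor2, a paralog of the arginine sensor of this pathway, measured 51.3, 53.9, 61, 53 and 58.7 CPM with exenatide and 37.5, 30.1, 37.4, 41.2 and 32.1 CPM with rapamycin (0.66 ± 0.09, adjusted p = 0.000663). Rictor, the defining subunit of mTORC2, measured 56.3, 55.3, 52.7, 44.6 and 53.4 CPM with exenatide and 37.4, 36.3, 24.1, 29.8 and 33.2 CPM with rapamycin (0.72 ± 0.11, adjusted p = 0.00131). All 3 genes were higher in every exenatide library. Folliculin (Flcn, 0.30), its partner Fnip1 (0.57), the GTPase Rragd (0.37) and Tsc1 (0.29), of the complex that inhibits mTORC1, were the other 4. Higher with rapamycin were Deptor, an inhibitor bound to mTOR (-0.56 ± 0.11, adjusted p = 0.0049), Tsc2 (-0.39), the partner of Tsc1, and Mtor itself (-0.29, adjusted p = 0.0276). Rptor, the defining subunit of mTORC1 (-0.12, adjusted p = 0.278), and Fkbp1a (-0.16, adjusted p = 0.0663) did not pass. In the fit over 6 groups the counts were 2 and 0, and Castor2, Rictor, Deptor and Mtor lost their calls. Mtor also lost it without exenatide replicate 2, 4 or 5. Glp1r, the receptor of exenatide, had 0 counts in all 10 libraries, which allows up to 0.111 to 0.129 CPM per library (3 counts, counting error only). Of the incretin genes, Dpp4, the peptidase that degrades GLP-1, was the 1 tested, and it was higher with exenatide (0.99, adjusted p = 0.0175), except in the fit over 6 groups.

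**Figure D4:**
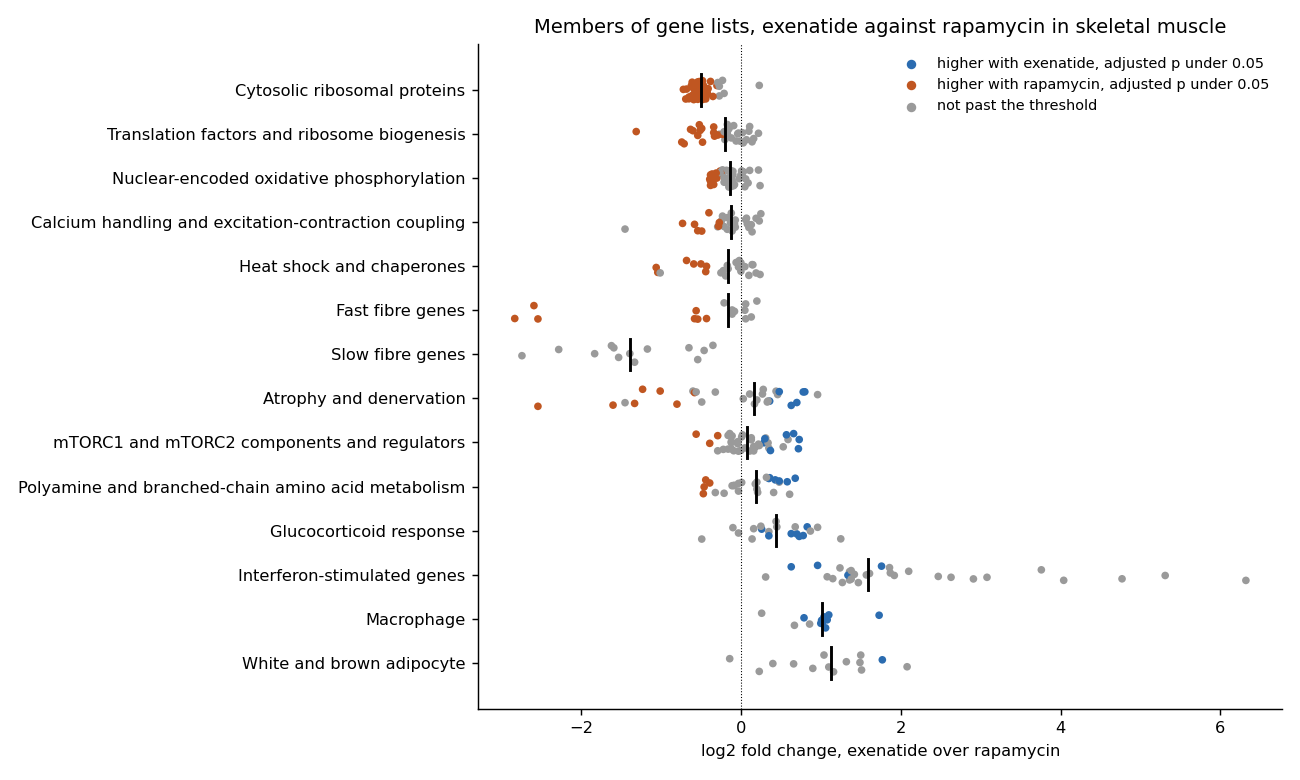
Each point is a tested member of a gene list, at its log2 fold change of exenatide over rapamycin in skeletal muscle (blue or orange past an adjusted p of 0.05, grey not), and black bars are list medians. Of the ribosomal proteins 43 of 50 were higher with rapamycin (median -0.49) and of the macrophage markers 11 of 14 higher with exenatide (median 1.02), while the interferon and slow fibre medians lie far from 0 with few or no members called.

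The genes with the smallest adjusted p among those higher with exenatide were led by Ces1d, a carboxylesterase that hydrolyses lipid esters. Ces1d measured 97.9, 107, 93.8, 86.8 and 83.1 CPM with exenatide and 38, 47.9, 38.1, 33.7 and 37.5 CPM with rapamycin, without overlap (1.28 ± 0.10, 2.43-fold, adjusted p = 1.32e-05). Ube4a, a ubiquitin chain-elongating ligase, measured 92.8, 104, 121, 107 and 108 CPM with exenatide and 62.9, 53.7, 56, 61.2 and 61.4 CPM with rapamycin (0.87 ± 0.08, adjusted p = 7.47e-05). Adhfe1, a mitochondrial transhydrogenase of hydroxy acids, measured 42.5, 59.9, 51.8, 54.5 and 54.3 CPM with exenatide and 29.2, 29.1, 28.6, 28.3 and 29.7 CPM with rapamycin (0.88 ± 0.08, adjusted p = 7.87e-05). The 3 genes were separated by drug in every library. They and the genes that follow were picked for their p in these libraries, so lack of overlap adds no support. Sorbs2, a cytoskeletal adaptor (0.99 ± 0.12), Asb5, an ankyrin repeat protein of muscle (0.72 ± 0.09), Homer1, a scaffold of calcium channels (0.76 ± 0.09), Itpr1, the inositol trisphosphate receptor (0.72 ± 0.08), Kdsr, an enzyme of sphingolipid synthesis (0.75 ± 0.09), and Srr, serine racemase (0.45 ± 0.05), followed with adjusted p of 0.000408 or lower and no overlap. Homer1 lost its call in the fit over 6 groups. On the rapamycin side, Cox7a2l, a factor of respiratory supercomplexes (-0.83 ± 0.07), Tubb4b, a beta tubulin (-0.98 ± 0.09), Wbp1 (-0.68 ± 0.07) and Drosha, the nuclear enzyme of microRNA processing (-0.69 ± 0.07), had no overlap and adjusted p of 0.000164 or lower.

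Genes with the largest called differences were mostly low or variable. Clca4a measured 0.254, 0.149, 0.338, 0.488 and 0.339 CPM with exenatide and 5.34, 1.71, 0.816, 4.99 and 2.99 CPM with rapamycin (-3.30 ± 0.53, adjusted p = 0.00254). Myom3, an M-band protein, measured 3.60, 4.65, 2.32, 3.71 and 3.15 CPM with exenatide and 13.6, 11.4, 47.4, 47.1 and 5.85 CPM with rapamycin (-2.83 ± 0.64, adjusted p = 0.0194). Both were without overlap, as were Fam174b (-2.66 ± 0.49) and Odf3l2 (2.23 ± 0.49). Myom3 lost its call when exenatide replicate 3 and rapamycin replicate 4 were both left out. Aldh1a7 (2.15), Cyp2e1 (2.89) and Slc27a2 (3.16), a fatty acid transporter, overlapped between the groups, and the calls of the last 2 were lost under 8 and 11 alternatives.

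Of 42 nuclear-encoded oxidative phosphorylation genes (median -0.14), 11 were higher with rapamycin and 0 with exenatide, against 9.18% and 8.29% of all genes. Examples were Sdha, the flavoprotein of complex II (-0.36, adjusted p = 0.0051), Ndufa10 of complex I (-0.39, adjusted p = 0.00464) and Cyc1 of complex III (-0.38, adjusted p = 0.00532). Without the 2 libraries that stood apart the counts were 7 and 3, and in the fit over 6 groups both were 0. Of 33 genes of insulin signalling and glucose use, 5 were higher with exenatide and 4 with rapamycin, against 8.29% and 9.18% of all genes. The glucose transporter Slc2a3 measured 34.8, 37.7, 40.7, 30.8 and 37.2 CPM with exenatide and 17.9, 24.1, 18.3, 21.5 and 25.8 CPM with rapamycin, without overlap (0.77 ± 0.11, adjusted p = 0.000872). Slc2a4, the insulin-driven transporter GLUT4, had 0.10 and did not pass. Glycolytic Aldoa (-0.36), Gapdh (-0.40) and Pgk1 (-0.47) were higher with rapamycin, and each lost its call in the fit over 6 groups. Without exenatide replicate 3 the counts of the list were 3 and 3.

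Genes of branched-chain amino acid breakdown were called in both directions. Bcat2, the mitochondrial aminotransferase of its first step, measured 55.7, 72.2, 64.1, 80.3 and 80.3 CPM with exenatide and 42.6, 40.1, 47.4, 50.2 and 41.9 CPM with rapamycin, without overlap (0.68 ± 0.10, adjusted p = 0.00125). Dbt, the core of the branched-chain ketoacid dehydrogenase, was also higher with exenatide (0.58, adjusted p = 0.00215), as was its activating phosphatase Ppm1k (0.43, adjusted p = 0.0122). The inhibitory kinase Bckdk (-0.46, adjusted p = 0.000846) and the E1 subunit Bckdha (-0.44, adjusted p = 0.00263) were higher with rapamycin. Dbt (adjusted p = 0.0584) and Bckdha (adjusted p = 0.0597) lost their calls in the fit over 6 groups. Over the 26 tested genes of polyamine and branched-chain amino acid metabolism, 6 were higher with exenatide and 4 with rapamycin, against 8.29% and 9.18%. The 4 became 2 without rapamycin replicate 2 or 5, and without both libraries that stood apart the counts were 11 and 3. With the length and GC offset they were 4 and 6. Among 33 PPAR and fatty acid oxidation genes, Oxct1, which activates ketone bodies (0.52), and Plin2, a lipid droplet coat (0.45), were higher with exenatide, Hadha (-0.37) and Slc25a20 (-0.30) higher with rapamycin, and Pdk4 was at 0.04 (adjusted p = 0.969). With 2 and 2 called, this list was below the 8.29% and 9.18% of all genes. Oxct1, Plin2 and Slc25a20 lost their calls in the fit over 6 groups. Of the rapamycin side 0 were called without exenatide replicate 2 or 5, 1 without exenatide replicate 1 or 3 or rapamycin replicate 3, and 5 without rapamycin replicate 5. Of the exenatide side 4 were called without exenatide replicate 5 or rapamycin replicate 4. Insig1, which holds back sterol synthesis (0.70, adjusted p = 0.00189), was the 1 called gene of 22 in cholesterol synthesis. Srebf1, the master factor of fatty acid synthesis (-0.65, adjusted p = 0.00231), was the 1 called of 21 in fatty acid and triglyceride synthesis. Most of that list went the other way, with a median of 0.34 and 18 of 21 values positive. Both counts were below the 8.29% and 9.18% of all genes, and nothing is read from them. Without exenatide replicate 1, 4 genes of fatty acid and triglyceride synthesis were higher with exenatide.

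Of 24 heat shock and chaperone genes (median -0.16), 7 were higher with rapamycin and 0 with exenatide, against 9.18% and 8.29% of all genes. Cryab, a small heat shock protein of muscle, measured 308, 343, 436, 374 and 421 CPM with exenatide and 570, 627, 597, 726 and 527 CPM with rapamycin (-0.68 ± 0.11, adjusted p = 0.00176). Hspa8, the constitutive HSP70, measured 848, 834, 994, 841 and 852 CPM with exenatide and 1130, 1200, 1210, 1250 and 1190 CPM with rapamycin (-0.43 ± 0.07, adjusted p = 0.00202). Neither gene overlapped. Hsp90ab1 (-0.50) and the inducible Hspa1b (-1.06) and Hspa1a (-1.04) were called too. In the fit over 6 groups the list's count was 4, and Hspa1b lost its call. Among 23 immediate early genes, 5 were higher with rapamycin and 0 with exenatide, against 9.18% and 8.29% of all genes. The nuclear receptor Nr4a3 led the 5 (-1.82 ± 0.23, adjusted p = 0.000496). In that fit 0 were called, and Nr4a3 in aged controls ran from 0.568 to 30.5 CPM. The early-gene count was 3 without exenatide replicate 4 or 5, and 1 gene was higher with exenatide without exenatide replicate 5 or rapamycin replicate 5.

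Of 20 tested glucocorticoid response genes (median 0.44), 7 were higher with exenatide and 0 with rapamycin, against 8.29% and 9.18% of all genes. Among the 7 were Sesn1, also in the mTORC1 and mTORC2 list, and Klf15 and Mt1, also in the atrophy and denervation list. Klf15, a factor of amino acid breakdown in muscle, measured 79, 70.5, 80.3, 69.8 and 84.6 CPM with exenatide and 41.6, 36, 47.8, 58.2 and 55.1 CPM with rapamycin, without overlap (0.70 ± 0.12, adjusted p = 0.00296). Nr3c1, the receptor itself (0.35, adjusted p = 0.00647), Sgk1 (0.63, adjusted p = 0.0326), Fkbp5 (0.83, adjusted p = 0.0491) and Mt1 (0.78, adjusted p = 0.0305) were higher, and Per1 (-0.03) and Dusp1 (0.14), also targets, did not pass. The fit over 6 groups called 3, and there Nr3c1 lost its call (adjusted p = 0.267). Mt1 lost its call under 7 alternatives. With 1 library left out the count was 3 or 4 for exenatide replicates 1, 3, 4 and 5 and rapamycin replicates 1, 2, 3 and 5. Of 26 integrated stress response genes, 5 were higher with exenatide and 1 with rapamycin, against 8.29% and 9.18% of all genes. The 5 included Cth (1.14), which makes cysteine, Psat1 (1.15), which makes serine, and Nupr1 (0.78), and the 1 was Shmt2 (-0.37). Atf4 itself was at 0.00, and the 6-group fit called 1 and 0, without Nupr1 and Shmt2. Without exenatide replicate 3, 2 were higher with rapamycin. Autophagy and lysosome genes gave 4 higher with exenatide and 2 with rapamycin of 32, where all genes gave 8.29% and 9.18%, and nothing is read from these counts. Among them were Tfeb, the transcription factor of lysosome genes (0.50, adjusted p = 0.00614), and the protease Ctsl (0.48, adjusted p = 0.00131), both without overlap. Without exenatide replicate 3 these counts were 7 and 1, and without exenatide replicate 4 or 5 or rapamycin replicate 1, 2 or 5 they were 4 and 1. Without rapamycin replicate 4 they were 6 and 1. Proteasome genes gave 4 and 2 of 31, from which nothing is read either, and the fit over 6 groups called 0. Psmc6, Psma5, Psma1 and Psmd4 lost their calls there and with the length and GC offset. The counts were 1 and 1 without exenatide replicate 2 or rapamycin replicate 1 or 3, 1 and 2 without exenatide replicate 1 or rapamycin replicate 2, 3 and 1 without exenatide replicate 4 or 5, and 2 and 2 without rapamycin replicate 5.

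Of 14 tested macrophage markers, 11 were higher with exenatide and 0 with rapamycin, at a median of 1.02, against 8.29% and 0.03 over all genes. Adgre1, the macrophage receptor F4/80, measured 1.52, 2.71, 3.59, 4.73 and 2.14 CPM with exenatide and 0.633, 1.18, 1.02, 0.595 and 1.04 CPM with rapamycin. The groups did not overlap (1.73 ± 0.31, adjusted p = 0.00337). Cd163, the haemoglobin scavenger receptor (1.06, adjusted p = 0.0133), Lyz2, lysozyme (1.08, adjusted p = 0.0181), and C1qa, of complement (1.01, adjusted p = 0.0196), moved with it. The summed level of all 16 markers was 78.1, 123, 154, 188 and 139 CPM with exenatide and 63.1, 101, 62.9, 49.7 and 65.2 CPM with rapamycin, so exenatide replicate 1 lay below rapamycin replicate 2. The count was 6 without exenatide replicate 2 or 3 or rapamycin replicate 1, 7 without exenatide replicate 4 or rapamycin replicate 4, and 4 without rapamycin replicate 3. The 6-group fit called 2. Adgre1 in aged controls was at 2.12 to 7.59 CPM.

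Other cell types of muscle were read from their markers. Mast cell proteases Tpsb2 (1.14), Cpa3 (1.43) and Mcpt4 (1.02) were higher with exenatide, 3 of 5 tested mast cell markers against 8.29% of all genes. Summed mast cell markers were at 7.57 to 16.8 CPM with exenatide and 3.25 to 8.98 CPM with rapamycin. Mcpt4 lost its call under 10 alternatives and Tpsb2 in the fit over 6 groups (adjusted p = 0.0692). Ighm, the heavy chain of immunoglobulin M, measured 144, 137, 217, 217 and 135 CPM with exenatide and 27.7, 32.8, 91.6, 80.6 and 33.2 CPM with rapamycin (1.69, adjusted p = 0.0211), without overlap. It was the 1 called of 3 tested B and plasma cell markers, against 8.29% of all genes, and 2 were not called. The B cell markers Cd79a and Ms4a1 were too low to test. No T or NK cell marker was high enough to test. Fat cell markers had a median of 1.13 over 14 tested, with 1 called, Rbp4 (1.77, adjusted p = 0.0307). This count was near the 8.29% of all genes higher with exenatide. The summed level of fat cell markers was 1400 to 1920 CPM with exenatide against 1040 to 1450 CPM with rapamycin. With 1 library left out, the fat cell list had 2 calls without exenatide replicate 1, 1 without rapamycin replicate 4 and 0 without each of the others. Endothelial markers had a median of -0.41 over 12 tested. The 1 called was Tie1 (-0.91), a count near the 9.18% of all genes higher with rapamycin. That count was 0 without exenatide replicate 1, 2, 4 or 5 or rapamycin replicate 1, 2, 3 or 4, and 3 without rapamycin replicate 5. Summed fibroblast markers were at 1170 to 1820 CPM with exenatide and 708 to 1360 CPM with rapamycin. Of 12 tested, 2 were called, both higher with exenatide, against 8.29% of all genes. They were Dpep1 (0.93) and Dpt (0.76), the latter lost under 3 alternatives. The fibroblast count was 6 without exenatide replicate 3 and 1 without rapamycin replicate 3. The part of these cell types in the gene differences above was not tested.

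All 30 tested interferon-stimulated genes had positive values, with a median of 1.59. Against 8.29% of all genes, only 4 of them passed the test. Their summed level was 174, 254, 10300, 221 and 258 CPM with exenatide and 166, 210, 188, 157 and 170 CPM with rapamycin. Exenatide replicate 3 stood far above the other 9 libraries, which ran from 157 to 258 CPM. Without it the median was 0.56 and 7 genes were called. Ifit1, an RNA-binding antiviral protein, measured 2.41, 2.94, 11.7, 1.69 and 4.34 CPM with exenatide and 0.752, 1.66, 1.75, 1.24 and 1.47 CPM with rapamycin (1.76 ± 0.53, adjusted p = 0.0467), a call lost under 9 alternatives, and the GTPase Iigp1 had the largest value (6.32) without passing. The count was 1 without exenatide replicate 5 or rapamycin replicate 1, 4 or 5, and 2 without rapamycin replicate 2.

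The same contrast was made in heart and hippocampus of the same animals, to see which muscle differences were shared. In heart, edgeR called 0 of 14998 genes (0% in either direction), with 2838 at an unadjusted p under 0.05 and a smallest adjusted p of 0.084. DESeq2's Wald test called 541 there, and the fit over 6 groups 835. One exenatide heart, replicate 5, held Myh4 of skeletal muscle at 207 CPM, against at most 0.409 CPM in the other 9 hearts. In hippocampus, 405 genes were higher with exenatide (2.21%) and 420 with rapamycin (2.29%) of 18309. The 825 calls there were 300 to 435 without exenatide replicate 1, 2, 4 or 5 and 321 without rapamycin replicate 5. Ribosomal protein genes had a median of -0.58 in heart with 0 called, and of -0.20 in hippocampus with 33 of 50 higher with rapamycin. Eef2 was at -0.46 in heart and at -0.30 in hippocampus (adjusted p = 0.00505), where it passed.

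**Figure D5:**
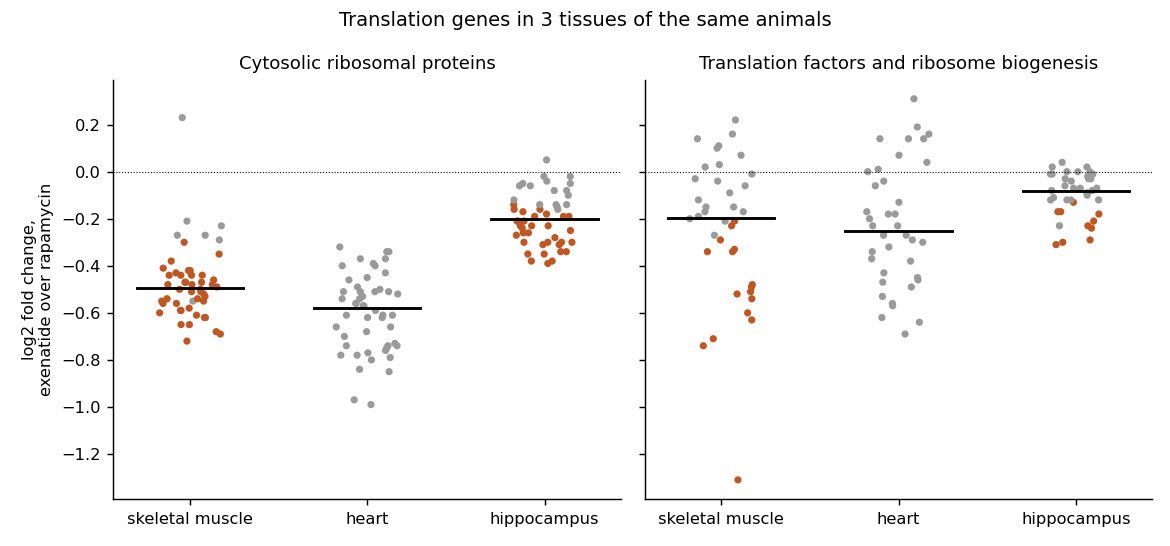
Each point is a member of the cytosolic ribosomal protein list (left) or of the translation factor list (right) at its log2 fold change of exenatide over rapamycin, in skeletal muscle, heart and hippocampus, with medians as black bars and orange for an adjusted p under 0.05. Ribosomal protein medians were -0.49, -0.58 and -0.20, and none of the heart values passed the test.

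A test of the difference itself, with the animal as a block, called 1 of 15968 genes between muscle and heart (0.00626%) and 1573 of 18470 between muscle and hippocampus (8.52%). The 1 gene was Ces1d, at 1.28 in muscle and -0.33 in heart, a difference of 1.57 ± 0.16 (adjusted p = 0.00475). For Eef2 the difference from hippocampus was -1.05, and for Chrna1, Ankrd1 and Pabpc4 it was -1.51, -3.03 and -1.11, all called. These genes were picked for their p in muscle, and the same muscle libraries enter this test. Of the ribosomal proteins 18 of 50 differed from hippocampus, each more toward rapamycin in muscle, and 0 differed from heart. The muscle and heart count of 1 was 3 without exenatide replicate 4, and 12, 2 and 56 without rapamycin replicates 2, 3 and 4. The hippocampus count was 955 to 1028 without exenatide replicate 2 or 4 or rapamycin replicate 1, 2 or 3.

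Each drug group was also set beside the 5 aged controls in the fit over all 6 groups. These 2 comparisons share the controls, so their values are given only side by side. Of 14927 genes, 1392 were higher (9.33%) and 1348 lower (9.03%) with exenatide than in aged controls, and 823 were higher (5.51%) and 705 lower (4.72%) with rapamycin. Limited to the 2 groups compared, the calls were 827 in all for exenatide and 11 for rapamycin, and without aged control replicate 1 they were 4278 and 2491. The rapamycin calls were 616 to 850 without rapamycin replicate 1, 2, 4 or 5. Eef2 was at -0.26 with exenatide (adjusted p = 0.0137) and at 1.07 with rapamycin (adjusted p = 3.23e-10). Pabpc4 was at -0.27 (adjusted p = 0.0618) and 0.81 (adjusted p = 1.44e-05). Chrna1 was at -0.97 (adjusted p = 0.000892) and 0.66 (adjusted p = 0.0226), so aged controls lay between the drugs. Ces1d was at 0.43 (adjusted p = 0.0627) and -0.83 (adjusted p = 0.00286). Myh1 was at -2.16 (adjusted p = 0.000271) with exenatide and 0.39 (adjusted p = 0.472) with rapamycin, and Myh2 at -2.74 (adjusted p = 0.0022) and -0.13 (adjusted p = 0.9). Asb5 was at 0.80 (adjusted p = 9.88e-05) and 0.10 (adjusted p = 0.606). Of the ribosomal proteins 0 were called with exenatide (median 0.22) and 17 were higher with rapamycin (median 0.70). Their summed level in aged controls ran from 2320 to 10800 CPM, with a median of 8640 CPM. With exenatide it was 7500 to 10100 CPM, within that range. Adgre1 was at -0.33 (adjusted p = 0.624) and -2.04 (adjusted p = 0.00566).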

How the data were processed

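Libraries came from polyadenylated RNA with a NEBNext Ultra II kit, which is not stranded, per the labels' protocols. FastQC 0.11.9 and the build GRCm39 are named per the submitters' processing notes. For the aligner, counter and annotation nothing is given in the sources used here. Estimated counts for 40840 genes were deposited by the authors, and 7.47% of those above 0 had decimals. They were rounded to whole numbers, and 118 columns of the table were not used. Libraries were grouped by title. Within a tissue, samples are separate animals. Genes passing filterByExpr were tested with edgeR 4.0.16 (R 4.3.3, TMM, robust quasi-likelihood F test, Benjamini-Hochberg over all genes tested) in the 10 libraries, with an adjusted p under 0.05 as the threshold. Tissue differences used animal as a block, since the labels give the same animal in each tissue. Comparisons with aged controls used all 30 libraries. DESeq2 1.42.0 was an alternative, and limma 3.58.1 drew the scaling plot. The edgeR steps were tested on simulated counts.

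Genes named were those with a mean of at least 1 CPM that had the 10 smallest p and the 5 largest changes per direction, up to 4 called members of each of 47 lists with 2 or more called, and a few chosen by name. Other list members were chosen after their values were seen. Members, lists and tests were chosen with earlier results of these data known. Of list symbols, 12 were matched through older or newer names. Transcript length and GC content were known for 94% of tested genes, from a GRCm38 annotation. Near-identical gene copies are uncertain. Start sequences are from RefSeq, build GRCm38.p6. Some genes that the naming rule picked are not reported here.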

Additional observations from a re-analysis of the deposited data

Results flagged for a closer look

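In 22 of 286 gene and group pairs, 1 of the 5 libraries lay far from the other 4. The Glp1r pairs among them had 0 counts in every library and could not be judged. Chance gives about 1 in 20 for independent, normally distributed values. CPM of genes from the same libraries are not such values, so nothing is read from the count of 22. With exenatide, replicate 3 was highest for Odf3l2 (42.1 CPM), Hspa8 (994 CPM), Ifit2 (6.21 CPM) and Ifit1 (11.7 CPM) and lowest for Myh2 (35.8 CPM). Replicate 5 was highest for Slc27a2 (7.09 CPM). Replicate 4 was highest for Cyp2e1 (95.7 CPM) and Fgf1 (13.5 CPM). Replicate 1 was lowest for Pdia3 (38.2 CPM) and highest for Myh7 (26.4 CPM), and replicate 2 was lowest for Igf2 (7.43 CPM) and highest for Mcpt4 (5.39 CPM). With rapamycin, replicate 4 was highest for Oxct1 (381 CPM), Myod1 (36.8 CPM), Fndc5 (103 CPM) and Myh7 (179 CPM) and lowest for Chrne (10.9 CPM). Replicate 3 was lowest for Psmc6 (90.7 CPM) and highest for Camk2b (387 CPM) and Fitm2 (63.5 CPM). F13a1 was highest in replicate 2 (11.8 CPM) and Fkbp1a in replicate 5 (112 CPM).

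The drug contrast itself differed between tissues for 19 values of the genes with the smallest p, by edgeR's interaction test. These genes were picked for their p in muscle, and the same muscle libraries enter this test. The differences are thus no separate support. Over all genes tested, 8.52% differed between muscle and hippocampus and 0.00626% between muscle and heart. Muscle minus heart, Ces1d differed by 1.57. Muscle minus hippocampus, the difference was 0.83 for Ube4a, 0.78 for Adhfe1, 0.73 for Itpr1, 0.84 for Kdsr, 0.60 for Sesn1, 1.05 for Sorbs2, 0.43 for Srr and 0.82 for Homer1. It was -1.05 for Eef2, -1.51 for Chrna1, -1.11 for Pabpc4, -0.62 for Cox7a2l, -1.04 for Tubb4b, -3.03 for Ankrd1, -0.72 for Trmt1, -0.81 for Wbp1, -0.48 for Eif3f and -0.58 for Drosha.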

How the results depend on the processing

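Counts of called genes moved by more than 1.5 times under some settings. With all 6 ST groups in the fit, 381 genes were higher with exenatide and 558 with rapamycin in muscle, 835 differed in heart and 132 in hippocampus (against 1152, 1276, 0 and 825). A length and GC offset, added after the data were seen, left 635 higher with exenatide. DESeq2's Wald test gave 541 in heart and 1625 in hippocampus. Without the filter on low counts, 1 gene differed in heart, 50 between muscle and heart, 961 between muscle and hippocampus, and 869 between rapamycin and aged controls. Fits limited to the 2 groups gave 827 (exenatide against aged controls) and 11 (rapamycin). With 1 library left out, the ranges were 736 to 1016 and 921 to 1340 in muscle, 0 to 2 in heart, 300 to 937 in hippocampus, 1 to 56 for muscle minus heart, 955 to 1528 for muscle minus hippocampus, 1954 to 4278 for exenatide and 616 to 2491 for rapamycin against aged controls. The lowest hippocampus count came without exenatide replicate 4 and the highest muscle minus heart count without rapamycin replicate 4. With no replicate block for the animal, 31 genes differed between muscle and heart instead of 1. No paired analysis was possible because the drug groups hold different animals whose numbers pair nothing. Pdk4, not called (0.04), ranged from -0.173 to 0.367 with 1 library left out, and Myh7, not called, from -5.44 to 0.315 (without rapamycin replicate 4), and was 0.648 without both libraries that stood apart (added after the data were seen). The cause of these shifts was not tested. Of 2556 values of named genes under alternatives, 2221 kept direction and side of the threshold and 321 lost the call. Of 954 list counts, 255 moved by more than 1.5 times. Genes near 1 CPM rest on few reads.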
